A study of Mus musculus with 6 samples.

Results

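The SOX genes examined were Sox2, Sox4, Sox5, Sox6, Sox7, Sox9, Sox11, Sox12, Sox13 and Sox15, 10 of the 24214 features counted in RNA sequencing of 393P cells. They were chosen by symbol, and each had 1 row in the count files. 393P is an epithelial lung adenocarcinoma cell line from a C57BL/6 mouse lung tumor. 3 samples were 393P_ZEB1 cells, stable transfectants that carried a ZEB1 expression vector, and 3 were 393P_vector cells, stable transfectants that carried the empty vector. All 6 samples were therefore drug-selected derivatives of a single line, grown in RPMI-1640 with serum, and the labels do not say whether the 3 samples of a group were separate cultures. The p-values measure only the spread between these samples, which may be technical.

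SOX proteins are transcription factors that bind the minor groove of DNA through an HMG box and bend it. They fall into groups with similar HMG boxes. SOXB1 (Sox2) maintains stem and progenitor cells and proximal airway progenitors, SOXC (Sox4, Sox11, Sox12) acts in neuronal and mesenchymal progenitors, and SOXE (Sox9) acts in cartilage and at the distal tips of the branching lung. SOXD proteins (Sox5, Sox6, Sox13) lack a transactivation domain of their own. Sox7 (SOXF) acts in endothelium, and Sox15 (SOXG) is found in muscle progenitors and embryonic stem cells. ZEB1 is a zinc finger repressor that drives epithelial-to-mesenchymal transition by binding E-boxes, and it forms a double-negative loop with the miR-200 microRNAs.

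Total counts ranged from 54442450 to 79158012 per sample, and levels are given as CPM (counts per 1000000 counts of the sample, after TMM scaling). On this scale 3 counts corresponded to between 0.0361 and 0.0561 CPM. The vector sample labelled replicate 3 stood apart: 8.71% and 9.6% of tested genes differed at least 2-fold between it and the other vector samples, against 2.41% between those 2 and 3.11% to 3.43% among the ZEB1 samples. Zeb1 was 21.5 ± 0.435 CPM in 393P_vector and 51.7 ± 3.01 CPM in 393P_ZEB1 cells (SD, n = 3 each), a log2 fold change of 1.26 with an edgeR adjusted p of 6.06e-05. Transcripts of the vector and of the endogenous gene cannot be told apart in these counts. Of 5 epithelial markers, 4 fell in 393P_ZEB1 cells with an edgeR adjusted p under 0.05. The lowest were Epcam (log2 fold change −6.53), Cdh1 (−4.09) and Krt18 (−0.77). Krt19 did not pass (−0.39, edgeR adjusted p = 0.0809), and its groups overlapped. Tested against a fold change of 1.5, Krt18 did not pass either (edgeR glmTreat adjusted p = 0.1025). The summed level of 7 endothelial markers was 2.48 to 2.76 CPM in vector and 0.72 to 1.05 CPM in ZEB1 samples, where Cdh5 had at most 14 counts and Emcn at most 5. Kdr, a VEGF receptor, was the only one of them to pass the test (log2 fold change −2.51, edgeR adjusted p = 0.000309), and without it the sums overlapped at 0.561 to 0.782 and 0.468 to 0.766 CPM. That of 5 leukocyte markers was 2.69 to 4.84 and 1.75 to 2.11 CPM, with Cd3e at no more than 9 counts. Csf1r, a macrophage growth factor receptor, was the only one of these to pass (−1.82, edgeR adjusted p = 0.00149), and without it the sums were 1.95 to 4.07 and 1.49 to 1.87 CPM. The part of these cell types in the results was not tested.

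Because ZEB1 and the miR-200 family regulate each other, the mature sequences of the family are given with the seed (bases 2 to 8) in capitals, from RefSeq for GRCm38.p6. MicroRNA levels were not analysed here. The 5 members form 2 seed groups that differ at a single base.
miR-200a-3p: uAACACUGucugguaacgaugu
miR-141-3p: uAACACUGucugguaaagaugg
miR-200b-3p: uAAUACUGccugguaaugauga
miR-200c-3p: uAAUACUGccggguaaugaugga
miR-429-3p: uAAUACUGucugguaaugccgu

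For every gene, the GENCODE M21 (GRCm38) transcript with the longest coding region was taken, and seed complements were looked for in its 3′ UTR. CAGTATT, the complement for miR-200b, miR-200c and miR-429, was found in 12.2% of 21028 genes, and CAGTGTT, the complement for miR-200a and miR-141, in 15.5%. There were 8 matches in 4 of the 10 SOX genes, all inside the counted interval, and none in the other 6. The 3′ UTRs searched differed in length, from 106 bases for Sox15 and 247 for Sox6 to 6957 for Sox11. Other 3′ UTRs of the same genes were not searched. Those of the SOX genes with detectable levels are shown in 30-base windows with the match in capitals, including the A that follows in an 8mer. Sox12 had 2 matches at chr2:152395658-152395687 and chr2:152394345-152394374 (minus strand), Sox2 had 1 at chr3:34651819-34651848 (plus strand), and Sox11 had 1 at chr12:27335311-27335340 (minus strand).
Sox12, miR-200b group: aaccacaactgCAGTATTcagtgggagaaa
Sox12, miR-200b group: cttgaggtaagCAGTATTtaaggtggtgtg
Sox2, miR-200b group: caacttttgtaCAGTATTtatcgagataaa
Sox11, miR-200a group: tccttggaatgCAGTGTTAatgctcagggt

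The other matches were in Sox5, which had 3 for the miR-200b group and 1 for the miR-200a group. A match is a description of the sequence only. The genes with matches included 1 that rose, 1 that fell and 1 that did not pass the test, as described below.

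In 393P_ZEB1 cells Sox11 mRNA fell 64.1-fold, Sox12 rose 1.79-fold and Sox13 rose 2.51-fold, while Sox2, Sox4, Sox6 and Sox9 did not pass the test. Of 10 SOX genes, 7 had enough counts to be tested and 3 (Sox5, Sox7, Sox15) did not. With edgeR's quasi-likelihood test and an adjusted p under 0.05, 2 of the 7 were higher and 1 was lower, when 18.3% of the 13892 genes tested were higher, 19.3% were lower and 37.6% were called in either direction. The share of the SOX genes called was thus near the background of this comparison. Groups did not overlap for the same 3 genes, and 52.8% of all tested genes had groups that did not overlap. The median log2 fold change of the 7 was 0.16, beside −0.02 for all tested genes.

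**Figure D1:**
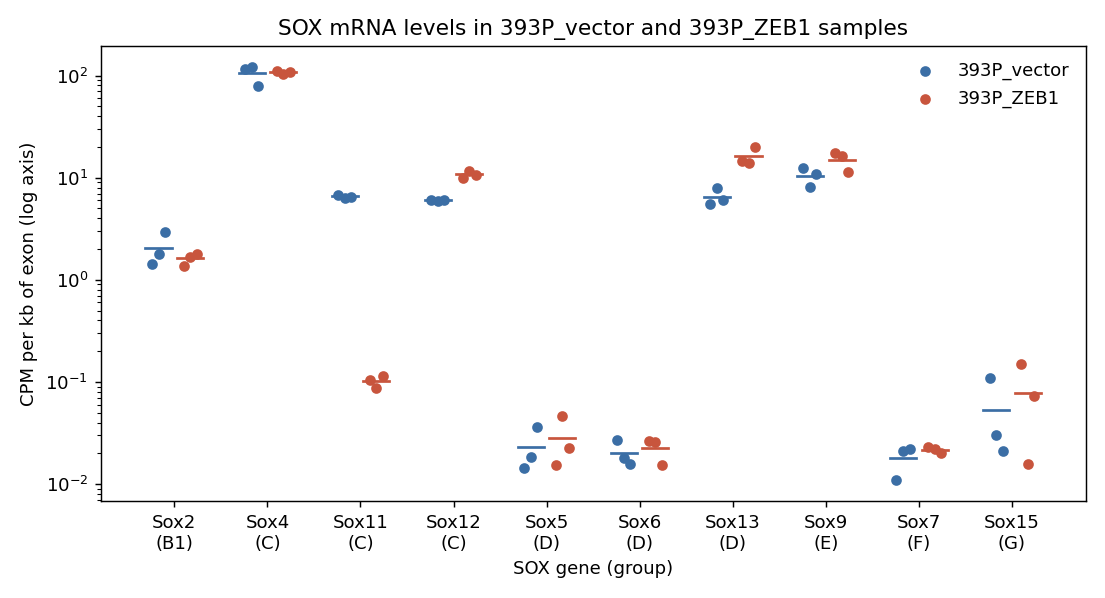
mRNA level of each SOX gene in CPM per kb of exon (log axis), 3 points per group with a bar at the mean, blue for 393P_vector and red for 393P_ZEB1. Sox4 sits above all others in both groups, and the Sox11 points drop from between 6.37 and 6.76 in vector to between 0.0873 and 0.114 in ZEB1 samples.

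Levels were compared between genes per kb of exon, as CPM per kb. In 393P_vector cells Sox4 had the highest level, 105.9 ± 23.9 CPM per kb (SD, n = 3), followed by Sox9 at 10.4 ± 2.21. Sox11 (6.55 ± 0.197), Sox13 (6.48 ± 1.20) and Sox12 (6.01 ± 0.0843) came next, and the ranges of neighbours in this order overlapped for Sox11 with Sox13 and Sox13 with Sox12. Sox2 was at 2.06 ± 0.783 CPM per kb. The remaining 4 genes, Sox15, Sox5, Sox6 and Sox7, had mean levels of 0.0533 CPM per kb or less and overlapping ranges. In 393P_ZEB1 cells Sox4 was again highest at 107.7 ± 3.16 CPM per kb. Sox13 (16.3 ± 3.36), Sox9 (15.04 ± 3.32) and Sox12 (10.8 ± 0.872) formed the next tier, with overlapping neighbours. Sox2 followed at 1.62 ± 0.22. Sox11 was then at 0.102 ± 0.0136 CPM per kb and overlapped Sox15 at 0.0787 ± 0.0664.

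Among the SOXC genes, Sox11 encodes a strong transactivator of neuronal progenitors. The gene is a single exon at chr12:27334268-27342718 on the minus strand, and its counts were 3234, 3167 and 4581 in the vector samples and 47, 41 and 59 in the ZEB1 samples. These were 57.1, 53.8 and 55.1 CPM against 0.878, 0.738 and 0.966 CPM. All 3 ZEB1 samples lay far below all 3 vector samples, and the vector sample that stood apart did not differ from the others here. The log2 fold change was −6.00 (SE 0.15, 95% confidence interval −6.36 to −5.64, edgeR adjusted p = 3.71e-07). That was the 91st lowest of the 13892 genes tested, and 0.655% of genes had a value as low or lower. Across 13 alternative analyses it stayed between −6.08 and −5.90. The ZEB1 counts were above the 3-count floor in every sample. Fewer cells expressing a gene and less RNA per cell cannot be told apart in bulk samples.

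Sox12, the weakest transactivator of SOXC, had counts of 1503, 1551 and 2250 in vector and 2379, 2890 and 2859 in ZEB1 samples. Its levels were 26.6, 26.4 and 27.1 CPM in the vector group and 44.5, 52.0 and 46.8 CPM in the ZEB1 group. The groups did not overlap, and the vector samples lay within 1 CPM of each other. The log2 fold change was 0.84 (SE 0.11, 95% confidence interval 0.59 to 1.09, edgeR adjusted p = 0.000676), and it was 0.78 to 0.89 in the alternatives.

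Sox4, the SOXC gene with the highest level and a regulator of epithelial-to-mesenchymal transition, was at 345.1, 361.3 and 231.7 CPM in vector and 324.9, 307.4 and 321.6 CPM in ZEB1 samples. The vector sample that stood apart was the lowest of the 6, and the other 2 vector samples were the highest. The log2 fold change was 0.02 (SE 0.17, 95% confidence interval −0.37 to 0.42, edgeR adjusted p = 0.928). Without vector replicate 3 it was −0.15 with an edgeR adjusted p of 0.107. The counted interval of Sox4 leaves out 1828 bases of the RefSeq span of the gene.

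Shares of the summed level describe the makeup of the SOXC transcripts. Sox11 made up 5.70% ± 1.29 of the summed SOXC level in CPM per kb in vector samples and 0.0858% ± 0.0102 in ZEB1 samples (SD, n = 3). Sox12 made up 5.25% ± 1.27 and 9.10% ± 0.918. Sox4 accounted for 89.1% ± 2.55 and 90.8% ± 0.911, and the SOXC sum was 118.5 ± 23.8 and 118.6 ± 2.31 CPM per kb. By sample the SOXC sum was 129.7, 134.7 and 91.1 CPM per kb in vector and 120.2, 115.9 and 119.6 in ZEB1 samples. The near-equal means rest on vector replicate 3, and the other 2 vector samples lay above all ZEB1 samples. Leaving Sox4 out, the other 9 genes summed to 32.3, 30.1 and 32.5 CPM per kb in vector and 44.0, 43.9 and 44.0 in ZEB1 samples. These shares were given without a test.

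In SOXD, Sox13 encodes a protein that binds TCF1 and acts in gamma-delta T cells. Its counts were 1109, 1623 and 1762 in vector and 2759, 2737 and 4322 in ZEB1 samples, or 19.6, 27.6 and 21.2 CPM against 51.6, 49.3 and 70.8 CPM. The lowest ZEB1 sample was above the highest vector sample, and replicate 3 was the highest ZEB1 sample. The log2 fold change was 1.33 (SE 0.19, 95% confidence interval 0.88 to 1.77, edgeR adjusted p = 0.00129), with a range of 1.16 to 1.49 over the alternatives. More than 10 reads fell on 12, 13 and 13 of its 14 exons in the vector samples and on all 14 exons in each ZEB1 sample. Sox13 made up 99.3% ± 0.199 of the summed SOXD level in vector and 99.7% ± 0.167 in ZEB1 samples.

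Sox6 and Sox5, which act with Sox9 in cartilage, were close to the detection limit. Sox6 had 13, 9 and 11 counts in vector and 12, 12 and 8 in ZEB1 samples, and the groups overlapped. Its log2 fold change was 0.16 (SE 0.39, 95% confidence interval −0.73 to 1.06, edgeR adjusted p = 0.771), so that a change of 2-fold up was inside the interval. Sox5 had 6, 8 and 22 counts in vector and 6, 19 and 10 in ZEB1 samples and was not tested. A Sox6 change inside its interval could not be resolved at this depth, and Sox5 allowed no statement on a difference. The counted intervals leave out 572719 bases of the RefSeq span of Sox5 and 2504 of that of Sox6, introns included.

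Sox9 (SOXE), which drives chondrogenesis and distal lung progenitors, had counts of 2915, 1963 and 3714 in vector and 3895, 3745 and 2853 in ZEB1 samples. The levels were 51.5, 33.4 and 44.7 CPM against 72.8, 67.4 and 46.7 CPM. The groups overlapped, since ZEB1 replicate 3 was below vector replicate 1. The log2 fold change was 0.53 (SE 0.21, 95% confidence interval 0.03 to 1.03), with an unadjusted edgeR p of 0.0399 and an adjusted p of 0.090. It passed the threshold in the alternative without ZEB1 replicate 3, at 0.71 with an edgeR adjusted p of 0.0436.

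Sox2 (SOXB1) lies within the noncoding gene Sox2ot on the same strand. It had counts of 199, 261 and 599 in vector and 181, 228 and 271 in ZEB1 samples, or 3.52, 4.44 and 7.21 CPM against 3.38, 4.10 and 4.44 CPM. The sample that stood apart was the highest, and the groups overlapped. The log2 fold change was −0.35 (SE 0.28, 95% confidence interval −0.99 to 0.29, edgeR adjusted p = 0.355), and without vector replicate 3 it was 0.000449 (edgeR adjusted p = 0.999). Sox2ot itself had between 2 and 8 counts per sample.

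Sox7 and Sox15 had too few counts to be tested. Sox7 had 2, 4 and 6 counts in vector and 4 in each ZEB1 sample. Sox15 had 7, 2 and 2 counts in vector and 9, 1 and 5 in ZEB1 samples, and it overlaps Mpdu1 on the opposite strand. The strand setting of the counting was not given in the sources used here, so reads of the pair may be mixed.

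**Figure D2:**
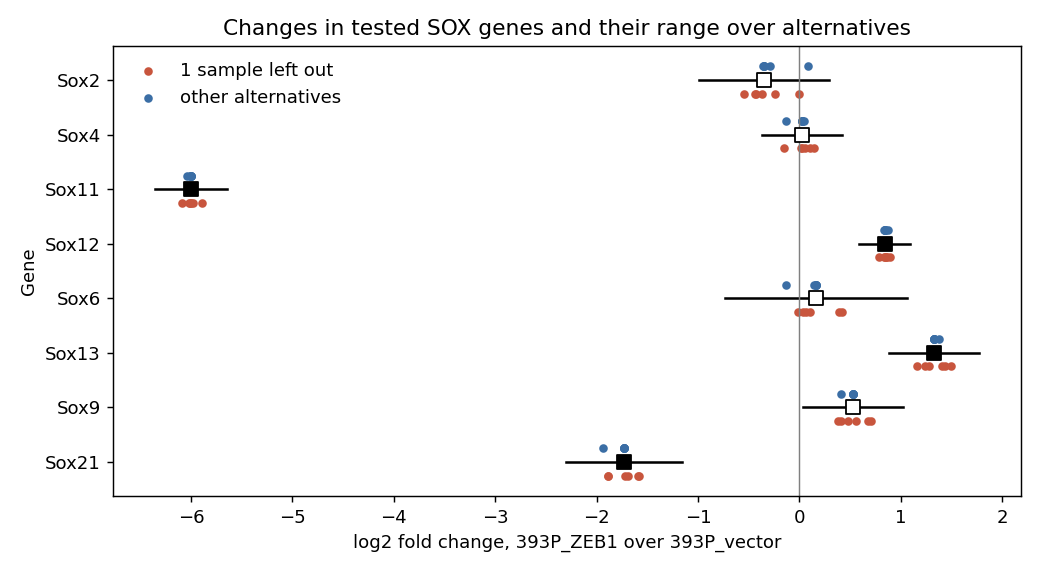
log2 fold change of 393P_ZEB1 over 393P_vector for the 7 tested SOX genes and Sox21 (squares, filled where the edgeR adjusted p was under 0.05) with 95% confidence intervals, and the values when 1 sample was left out (red) or another analysis setting was used (blue). Sox9, Sox11, Sox12, Sox13 and Sox21 keep their side of 0 in all of them, and the Sox2, Sox4 and Sox6 values fall on both sides.

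Of the SOX genes outside the 10, Sox21, a SOXB2 repressor that counteracts Sox2 and its relatives, was the only gene of another 10 with enough counts to be tested. It had 227, 210 and 220 counts in vector and 54, 45 and 76 in ZEB1 samples, or 4.01, 3.57 and 2.65 CPM against 1.01, 0.808 and 1.24 CPM. The groups did not overlap, and the gene fell 3.32-fold (log2 fold change −1.73, SE 0.25, edgeR adjusted p = 0.0012). Sox8 had 7, 8 and 8 counts in vector and 5, 3 and 8 in ZEB1 samples. Sox17, Sox1 and Sox10 had at most 8, 5 and 7 counts in any sample, and the other 5 genes had at most 7.

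Reads can be shared between related genes where transcripts share identical bases. The longest identical stretch between coding transcripts of the SOX genes was 48 bases for Sox4 and Sox11. It was 38 bases for Sox2 and Sox21, 35 bases for Sox7 and Sox13, and 33 bases for Sox4 and Sox12. The read length and the handling of reads that match 2 genes were not given in the sources used here. Whether any of the 41 to 59 Sox11 counts of the ZEB1 samples came from Sox4 was not tested.

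Each gene was set beside the tested genes around it. The median log2 fold change was 0.26 for the 1155 genes tested on chromosome 11, which carries Sox9, and it was −0.26 for the 466 tested on chromosome 14, which carries Sox21. The 20 nearest tested genes of Sox9 had a median of 0.78, with 12 higher and 2 lower. Sox9 at 0.53 was below that median, with 9 neighbours lower than it and 11 higher. The 20 neighbours of Sox21 had a median of −0.67, with 0 higher and 10 lower. Whether the values of Sox9 or Sox21 are related to those of their neighbours was not tested.

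The genes around Sox11, Sox12 and Sox13 had medians closer to 0. The 20 genes around Sox11 had a median of 0.28, with 7 higher and 1 lower. Its nearest tested neighbours were Gm9866 at 187.8 kb (1.36, edgeR adjusted p = 0.0773) and Rps7 at 1294.9 kb (−0.26, edgeR adjusted p = 0.463). Around Sox12 the median was −0.25, with 1 higher and 6 lower, and all 20 neighbours were lower than Sox12. The nearest on either side were Zcchc3 at 17.7 kb, which fell by 2.78 on the log2 scale (edgeR adjusted p = 0.00211), and Trib3 at 55.1 kb, which rose by 0.70 (edgeR adjusted p = 0.0335). Around Sox13 the median was 0.20, with 8 higher and 3 lower, and 18 of the 20 neighbours were lower than Sox13. Its nearest neighbours both rose, Etnk2 at 31.3 kb by 1.60 (edgeR adjusted p = 0.00259) and Snrpe at 203.8 kb by 0.53 (edgeR adjusted p = 0.0174).

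**Figure D3:**
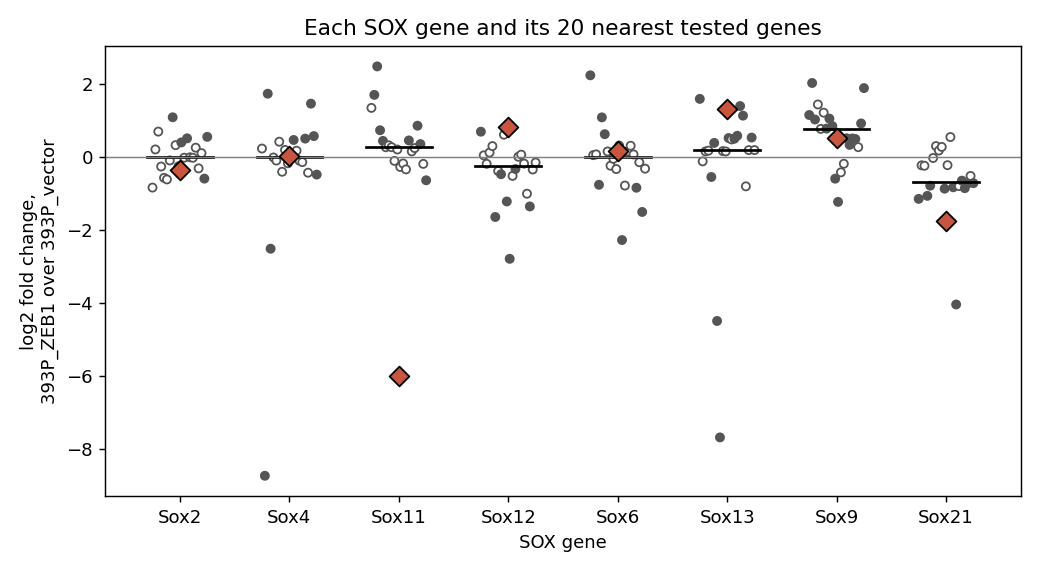
log2 fold change of each tested SOX gene and Sox21 (red diamonds) beside its 20 nearest tested genes, 10 on each side (circles, filled where the edgeR adjusted p was under 0.05), with a bar at the median of the neighbours. Sox11 at −6.00 lies below all of its neighbours, and Sox9 at 0.53 lies under the neighbour median of 0.78.

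Promoter windows from 250 bases before to 50 after the start (RefSeq, GRCm38.p6) were available for 8 of the 10 genes, in 13 windows. The set of windows held none for Sox7 and Sox9. An E-box bound by ZEB1 (CAGGTG, or CACCTG on the other strand) was in 20.2% of 32851 promoters. It was in the windows of 2 of the 8 genes, Sox15 and 1 of the 6 windows of Sox6, and in none of those of Sox2, Sox4, Sox5, Sox11, Sox12 and Sox13. A SOX motif (AACAAT, or ATTGTT on the other strand) was in 10.7% of promoters and in 1 window of Sox6. The absence of the letters says only that they are not in these windows, and other E-box sequences were not searched.

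TCF and LEF factors share DNA targets with SOX proteins, and beta-catenin joins both. Of 5 such genes tested, Tcf7l1 rose by 0.47 and Tcf7 fell by 0.46 on the log2 scale (edgeR adjusted p = 0.0433 and 0.0301), with a list median of 0.17. Lef1 was at 0.238 CPM in vector and 0.0878 CPM in ZEB1 samples (log2 fold change −1.40, edgeR adjusted p = 0.0644). Of 8 cofactors and turnover enzymes, Hdac1, a histone deacetylase, rose (0.68, edgeR adjusted p = 0.0376) and Ep300, an acetyltransferase and coactivator, fell (−0.57, edgeR adjusted p = 0.00257). The other 6 did not pass the test, and the list median was −0.01. Over all tested genes 37.6% were called in either direction, so the calls in both lists are no result about the lists. The calls of Tcf7, Tcf7l1 and Hdac1 were lost when any ZEB1 sample was left out, with edgeR adjusted p of 0.0681 to 0.121, 0.0944 to 0.135 and 0.0811 to 0.122. Without vector replicate 1 that of Tcf7 was also lost (0.0782) and that of Tcf7l1 (0.0854), and Tcf7l1 was lost without vector replicate 2 (edgeR adjusted p = 0.126).

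Sox9, Sox5 and Sox6 have textbook targets in cartilage. Of 13 such targets, 6 were tested, 0 were higher and 2 were lower, when 18.3% and 19.3% of all tested genes were, so these counts are no result about the list. Acan, the proteoglycan aggrecan, went from 120.6 ± 31.5 to 69.8 ± 8.83 CPM (SD, n = 3), and Matn3 fell by 2.36 on the log2 scale. The edgeR adjusted p was 0.0195 and 0.00137, and the list median was −0.53. Acan did not pass without vector replicate 1 (−0.64, edgeR adjusted p = 0.0584) or without any of the ZEB1 samples (−0.84 to −0.68, edgeR adjusted p = 0.0506 to 0.0813). Col2a1, the classical Sox9 target, was at 0.301 and 0.165 CPM (log2 fold change −0.83, edgeR adjusted p = 0.211). Of 5 targets of Sox4 and Sox11, Tubb3, a neuronal tubulin, fell (−1.15, edgeR adjusted p = 0.00316), and the other 4 did not pass the test. With 19.3% of all tested genes lower, this count is no result about the list either. Ezh2 was at 121.5 and 103.4 CPM and Tead2 at 140.4 and 164.4 CPM. The list median was −0.17.

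Of 10 partners and targets of Sox2 in pluripotent cells, 4 were tested. Lefty1, a secreted inhibitor of Nodal signaling, rose (1.72, edgeR adjusted p = 0.000359), and Pax6, an eye and neural transcription factor, fell by 4.51 (edgeR adjusted p = 8.28e-06). Klf4 and Sall4 did not pass the test, the list median was 0.02, and Pou5f1 and Nanog had at most 5 counts in any sample. Of 7 proximal airway genes, where Sox2 acts in development, 3 were tested, and Foxj1, a ciliated cell factor, fell by 3.89 and Krt5, a basal cell keratin, fell by 1.70 (edgeR adjusted p = 7.35e-05 and 0.0138). The list median of −1.70 was the value of Krt5. Krt5 was close to the detection limit, with 21, 14 and 18 counts in vector and 4, 6 and 4 in ZEB1 samples. Of all tested genes 19.3% were lower, and with 3 genes tested the list gives no result of its own. Of 11 distal lung genes, where Sox9 acts in development, 7 were tested with a list median of 0.28. Id2 rose by 0.74 and Mycn and Abca3 fell by 1.82 and 0.82 (edgeR adjusted p = 0.0341, 0.0129 and 0.00568). Over all tested genes 37.6% were called in either direction. With 7 genes tested here and 4 among the Sox2 partners and targets, neither list gives a result of its own. Mycn was also close to the detection limit, with 12, 21 and 31 counts in vector and 6, 6 and 3 in ZEB1 samples. Krt5 did not pass without ZEB1 replicate 1 or 3 (edgeR adjusted p = 0.0550 and 0.0616), nor Mycn without ZEB1 replicate 3 (0.0541). Id2 did not pass without vector replicate 1 or 2 (edgeR adjusted p = 0.0959 and 0.0848) or without any of the ZEB1 samples (0.0683 to 0.111). The lung lineage markers Nkx2-1, Sftpc, Sftpb and Hopx had at most 5 counts in any sample and were near 0 in both groups. Other genes of the distal list were not. Abca3 was at 152.1 CPM in vector and 86.1 CPM in ZEB1 samples, and Lamp3 was at 2.83 and 3.99 CPM.

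**Figure D4:**
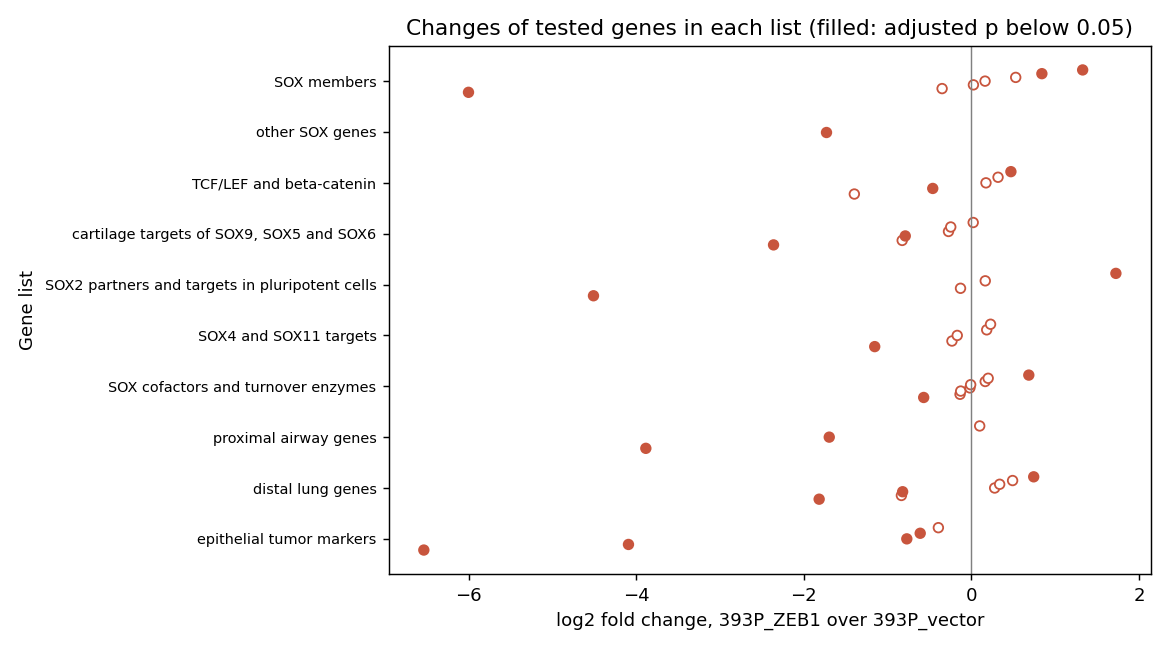
log2 fold change of every tested gene of each list, 393P_ZEB1 over 393P_vector, filled where the edgeR adjusted p was under 0.05. The SOX genes reach from −6.00 for Sox11 to 1.33 for Sox13, and the called genes of the other lists reach from −6.53 for Epcam to 1.72 for Lefty1.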

How the data were processed

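RNA of 3 393P_vector and 3 393P_ZEB1 samples was sequenced from total RNA with the SOLiD total RNA-seq kit. The authors deposited, for each of 24214 features in each sample, an unnormalized count of reads, the number of exons with more than 10 reads, and an RPKM, which is the count scaled by exon length and library size. The deposited RPKM was used only to check the totals: the total it implied was 99.1% to 99.32% of the counts. The aligner, counting tool, read length, strand setting and genome build were not given in the sources used here. The start and end of 4 of the 10 SOX genes equalled those of RefSeq in GRCm38.p6.

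The deposited counts were fitted with edgeR 4.0.16 (R 4.3.3), with TMM normalization, filterByExpr at a minimum count of 10, robust quasi-likelihood tests across all 13892 genes kept, and Benjamini-Hochberg adjustment with a threshold of 0.05. No covariate was used. CPM values were TMM-normalized and divided by exon length where genes were compared. Intervals of 95% are confidence intervals of the log2 fold change and rest on the spread between these samples. The SE was the size of the log2 fold change divided by the square root of the F statistic. The procedure was tested on simulated data. Alternatives were DESeq2 1.42.0 size factors, its Wald test, limma 3.58.1 voom with sample weights, no filter, a replicate block, each sample left out, a stricter threshold (0.01) and glmTreat at 1.5-fold. The members and lists were chosen with earlier results of these data known. All 10 members were named, with other SOX genes of at least 3 counts in every sample of a group, and up to 3 genes in each direction among those called in each other list. Genes short of the threshold were named only for their values. Adgre1 was not found among the leukocyte markers.

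Both groups used the numbers 1 to 3. Deviations from the group mean correlated at −0.13 to 0.20 between samples of equal number and −0.12 to 0.16 between others. These ranges overlap and rest on few pairs, so they do not settle whether the numbers paired the samples.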

Additional observations from a re-analysis of the deposited data

How the results depend on the processing

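Sox12 and Sox13 were higher and Sox11 was lower in all 13 alternatives, and Sox9 was also higher without ZEB1 replicate 3, which gave 3 higher genes in place of 2. Over the analyses that left out 1 sample, the members called higher numbered 2 to 3 and those called lower 1. Of 91 values for members, 84 kept their direction and side of the threshold, 1 passed it and 6 changed sign, none of which had passed the test. The stricter threshold and the 1.5-fold test kept the log2 fold changes of the main fit, so no sign could change in them. With limma voom the log2 fold change was 0.081 for Sox2, −0.14 for Sox4 and −0.13 for Sox6. Without vector replicate 3 it was 0.000449, −0.15 and −0.015, and over the 6 analyses that left out 1 sample it ranged from −0.55 to 0.000449 for Sox2, −0.15 to 0.15 for Sox4 and −0.015 to 0.42 for Sox6. Of 273 values of the 21 other called genes of the lists, 229 stayed and 44 lost the call with the same direction. Acan, Hdac1, Id2, Krt5, Mycn, Tcf7 and Tcf7l1 each lost it when at least 1 sample was left out, at edgeR adjusted p up to 0.0813, 0.122, 0.111, 0.0616, 0.0541, 0.121 and 0.135. Over all genes, 5218 calls became 8071 with limma voom, 3129 at a threshold of 0.01 and 2199 against a fold change of 1.5. They were 5780 with DESeq2's test and 3645 to 7476 when 1 sample was left out. Whether the replicate numbers paired the samples was not settled. With the replicate number as a block there were 4436 calls, and the log2 fold change was −6.01 for Sox11, 0.84 for Sox12 and 1.32 for Sox13. The block changed no call of a SOX member, and it ended those of Tcf7 and Tcf7l1 (edgeR adjusted p = 0.0643 and 0.0952). The counts of Sox5, Sox6, Sox7 and Sox15 limit what can be said of them.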
